A study of Mus musculus with 5 samples.

Results

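Plasma cells are the antibody-secreting end stage of the B lineage. Here they were the cell barcodes of mouse intestine whose messenger RNA met a fixed set of limits on marker genes, and 203 of the 12255 barcodes of sufficient quality met them, of 16535 deposited. A kept barcode had no fewer than 300 genes and no more than 20% of its UMIs (unique molecular identifiers, 1 per captured transcript) in mitochondrial genes. A plasma cell also had at least 0.5% of its UMIs in Jchain, the joining chain of secreted antibody polymers, and at least 3 UMIs in Mzb1, an endoplasmic reticulum (ER) protein of antibody assembly, and Tnfrsf17, the survival receptor BCMA, together. It had at most 1 UMI of Epcam, an epithelial adhesion molecule, and none of Cd3e, a subunit of the T cell receptor complex. The cells were thus chosen by their measured values of these genes, which are not findings about them.

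The cells came from 1 droplet library (10x Genomics) each of duodenum, jejunum, ileum, colon and rectum, after a sort that kept cells which excluded propidium iodide. The labels give a mixture of epithelial, mesenchymal and immune cells and name no genotype, treatment, strain or age. The study as a whole concerns Gnai1-positive stromal cells. Each segment is a single library, so no test between segments was possible, and differences between segments cannot be told apart from differences between libraries or animals.

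Plasma cells of the gut wall lie in the lamina propria and secrete mostly IgA, which the J chain joins into dimers that epithelial cells carry into the lumen. The transcription factor XBP1 drives expansion of the ER in these cells, where signal peptides are cleaved and antibody chains are folded, joined by disulfide bonds and checked before export. The chemokine receptor CCR9 is known for guiding cells to the small intestine, whose epithelium makes its ligand CCL25, whereas CCR10 recognises CCL28, which is made along the gut and at other mucosal surfaces.

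One feature of the ER programme can be shown as sequence. The ER stress response element is a promoter motif through which ATF6 and XBP1 are known to act on chaperone genes. It reads CCAAT, then 9 bases of any kind, then CCACG, or CGTGG, 9 bases and ATTGG where it lies on the opposite strand. It was searched on both strands from 250 bases before to 50 bases after the start of each gene (RefSeq, build GRCm38.p6). It was present in 37 of 27025 genes with a promoter, 0.137%, and in 12 of the 7489 genes compared below between plasma and B cells, 0.160%. Of the 25 genes of ER translocation and folding with a promoter sequence it was present in 7, and of 17 genes of ER stress and degradation in 2. The motif is known from chaperone genes, so its presence in these lists is not a finding. Of 152 genes at least 4-fold higher in plasma than B cells in all 5 libraries, 5 had it, 3.29%. Of 17 Golgi and vesicle genes, 0 had it. A match is a description of the letters and does not show binding. The 7 stretches that follow are the matches of the folding and degradation genes whose levels are described below. Each is written 5′ to 3′ on the strand of its gene, with the motif in capitals and 20 bases on either side.
Hspa5, chr2:34772005-34772063, plus strand: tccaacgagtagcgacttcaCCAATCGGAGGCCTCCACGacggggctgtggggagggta
Hsp90b1, chr10:86705618-86705676, minus strand: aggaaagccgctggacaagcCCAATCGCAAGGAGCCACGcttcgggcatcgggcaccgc
Pdia6, chr12:17266471-17266529, plus strand: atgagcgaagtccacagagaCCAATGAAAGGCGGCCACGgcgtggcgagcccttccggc
Calr, chr8:84847055-84847113, minus strand: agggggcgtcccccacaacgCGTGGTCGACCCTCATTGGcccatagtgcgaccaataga
Dnajc3, chr14:118937807-118937865, plus strand: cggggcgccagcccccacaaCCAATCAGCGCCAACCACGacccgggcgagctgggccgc
Creld2, chr15:88819500-88819558, plus strand: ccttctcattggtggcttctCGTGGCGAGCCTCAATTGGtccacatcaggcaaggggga
Derl3, chr10:75893222-75893280, plus strand: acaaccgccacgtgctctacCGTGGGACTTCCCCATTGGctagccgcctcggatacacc
In Hspa5, Hsp90b1, Pdia6 and Dnajc3 the motif lies on the strand of the gene, and in Calr, Creld2 and Derl3 on the opposite one. Hsp90b1 holds a further match on its opposite strand, and Canx and Syvn1 complete the set.

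The libraries held between 41953568 and 65546664 UMIs. The plasma cells had a median of 19939 UMIs and 2401 genes each, and their median UMIs by segment lay between 17510 and 24816. Between 6 and 14 barcodes of a library also occurred in another library, and 1 of these, in duodenum, was a plasma cell. RNA from plasma cells was also found outside them: Igha, the IgA heavy chain gene, gave a UMI in 13.9% to 85.9% of T cells by library and in 32.4% to 95.3% of epithelial cells, most often in rectum in both. In T cells, taken as barcodes with Cd3e and without Cd79a, Igha stood at 28.9 to 444 counts per 1000000 UMIs (CPM), against 103353 to 136194 CPM in plasma cells. All intervals given are 95% intervals, exact for a proportion (Clopper-Pearson) or a count (Poisson), and cover counting error only.

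The limit on Epcam decided how many cells were counted. Without it 555 barcodes met the other criteria, so that it removed 352 of them, 63.4% (59.3 to 67.4%). It removed 40 of 79 in duodenum, 30 of 69 in jejunum, 17 of 28 in ileum, 52 of 87 in colon and 213 of 292 in rectum. The barcodes formed no gap at the limit, since 119 had 0 Epcam UMIs, 84 had 1, 78 had 2, 59 had 3 and 215 had 4 or more. The limit on Cd3e left 555 of 598 barcodes. Only 1 barcode that met the rest fell between 0.4% and 0.5% Jchain and 2 between 0.5% and 0.6%, and 20, 14, 11, 9 and 9 had 0, 1, 2, 3 and 4 UMIs of Mzb1 and Tnfrsf17 together, with no gap at the limit.

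The barcodes removed by the Epcam limit had a median of 55.2% of UMIs in immunoglobulin genes (names starting Igh, Igk or Igl), against 56.8% in plasma cells, and a median of 34220 UMIs, against 19939. Of these 352, 347 were of the IgA class defined below. Over Krt8, Krt18, Krt19 and Krt20, keratins of simple epithelium, Cdh1, the adhesion protein E-cadherin, Vil1, of the brush border, and Elf3, an epithelial transcription factor, they held 2982 UMIs to 2791 of Epcam, a ratio of 0.936 Epcam UMI per UMI of the other genes. The ratio was 0.299 in 4563 epithelial cells and 0.351 in T cells, but Epcam was used to choose all 3 sets, with at least 2 UMIs in the removed barcodes and in epithelial cells and at most 1 in T cells, so that the ratios describe the sets and compare nothing. Among them, 218 had 0 or 1 UMI of the 7 genes and a median of 4 Epcam UMIs, and 76 had 3 or more. In those 76 the ratio was 0.501 and the median depth 55745 UMIs.

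Plasma cells inside the limit held 84 Epcam UMIs to 122 of the 7 genes, a ratio of 0.689, with at most 1 Epcam UMI allowed. The 218 cells with few other epithelial UMIs stood at 269, 198, 189, 312 and 327 Epcam CPM from duodenum to rectum, when immunoglobulin genes were left out of the total. B cells, also limited to 1 Epcam UMI, stood at 29.3, 19.9, 26.05, 57.0 and 21.9 CPM and epithelial cells at 1745 to 2256 CPM on the same scale. The 218 cells were chosen with at least 2 Epcam UMIs and B cells with at most 1, so their order is not a finding. Depth also bears on these levels, with medians of 31821 UMIs in the 218 cells and 3291 in B cells. The part of doublets in these cells was not tested directly. Scrublet, which scores doublets by simulation, put 18 of the 352 among its highest scores, and 5 of the 203. Over all 12255 kept barcodes the highest scores were 250.

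**Figure D1:**
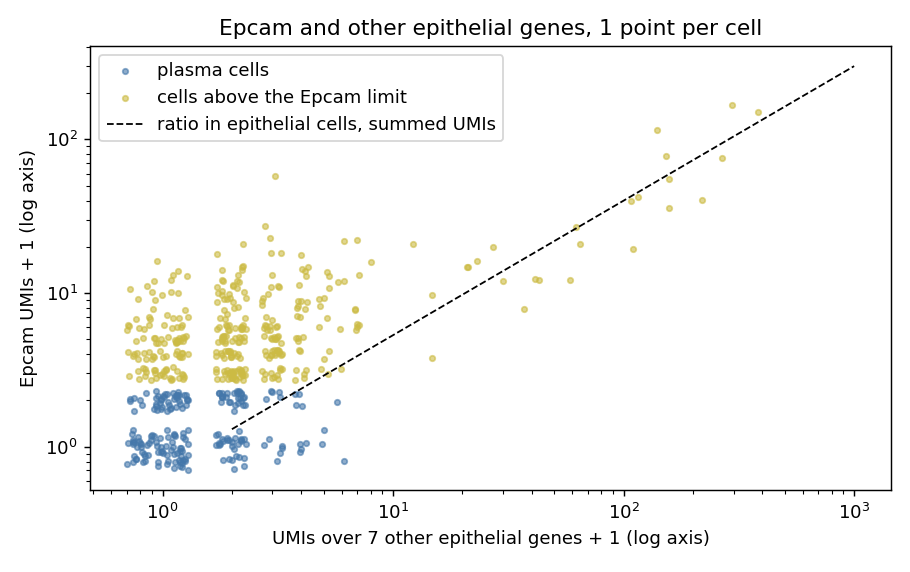
Each point is 1 cell, with its UMIs over 7 epithelial genes other than Epcam (x) and its Epcam UMIs (y), both plus 1 on log axes and with a small random shift. The 203 plasma cells and the 352 barcodes above the Epcam limit are coloured; the dashed line is the ratio of 0.299 in epithelial cells, and the 2 sets are separated on the y axis by the limit itself.

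Rectum had the highest share of plasma cells and ileum the lowest. There were 39, 39, 11, 35 and 79 plasma cells in duodenum, jejunum, ileum, colon and rectum. Values by segment are given in this order throughout. These were 1.18% (0.839 to 1.61%), 2.08% (1.49 to 2.84%), 0.436% (0.218 to 0.779%), 1.59% (1.11 to 2.21%) and 3.36% (2.67 to 4.17%) of kept barcodes. The intervals of rectum and jejunum overlapped, and those of rectum did not reach duodenum, ileum or colon. Without the Epcam limit the shares were 2.39%, 3.69%, 1.11%, 3.96% and 12.4%, so that the order stayed the same apart from colon and jejunum. Relative to B cells (barcodes with Cd79a and Ms4a1 and without Jchain), plasma cells were 3.79%, 8.76%, 1.36%, 10.4% and 28.3% of the 2 classes together. The shares describe the sorted libraries and not the tissue.

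**Figure D2:**
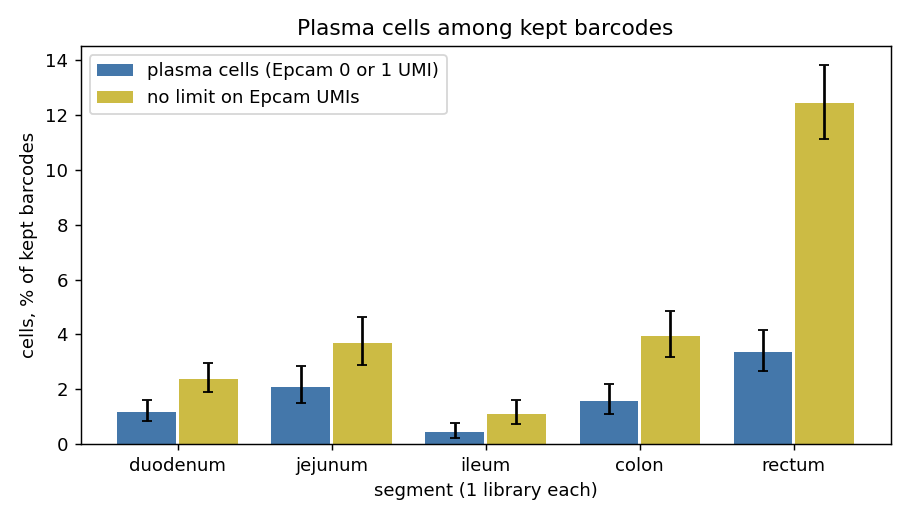
Plasma cells as a percentage of kept barcodes in each segment, with the Epcam limit (left bar of a pair) and without it (right bar). Bars are 1 library each and lines are exact 95% binomial intervals. Rectum is highest in both, at 3.36% and 12.4%.

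The cells carried the markers of plasma cells in each library. Igha was found in 202 of 203 cells, Mzb1 and Jchain, which the rule used, in all of them, and Slpi, a secreted inhibitor of leukocyte proteases, in 145. Jchain, which the rule used, held a median of 6.53% of a cell's UMIs. On the scale of all UMIs, Igha stood at 136194, 135866, 104369, 103353 and 110189 CPM and Slpi at 1326, 640, 565, 885 and 1471 CPM. Without immunoglobulin genes in the total, Slpi was at 3433, 1374, 1409, 1838 and 3203 CPM, highest in duodenum and rectum on either scale. One duodenal cell held 24.6% of the Slpi UMIs of its library, and one rectal cell 24.9%.

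Immunoglobulin genes made up a large part of the captured RNA. Their median share by segment was 62.5%, 59.3%, 55.4%, 48.1% and 51.5%. Single cells ranged from 5.40% to 79.7%, and 30 of 203 lay under 30%. These 30 had a median of 3858 UMIs, against 21343 in the other 173, and a median Jchain share of 4.72%, against 6.67%. Duodenum had no cell under 38.4%, whereas cells of low share occurred in each of the other segments.

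**Figure D3:**
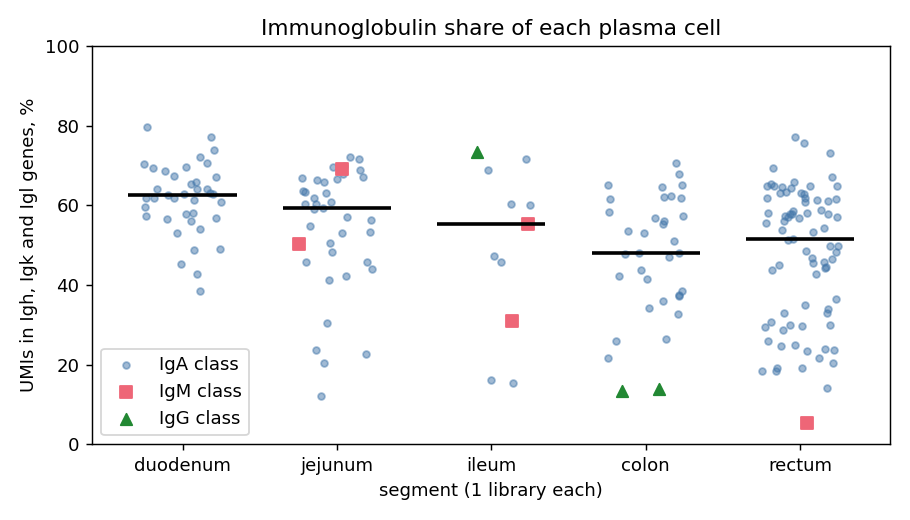
Percentage of UMIs in genes starting Igh, Igk or Igl in each of the 203 plasma cells, by segment, with the median as a black line. Symbols give the heavy chain class; the medians lie between 48.1% and 62.5%, and both colonic IgG cells lie under 14%.

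IgA was the class of 195 of the 203 cells (96.1%, 92.4 to 98.3%). A cell was given the class with at least 50% of its UMIs in heavy chain constant genes. All 39 duodenal cells were IgA, as were 37 of 39 in jejunum, 8 of 11 in ileum, 33 of 35 in colon and 78 of 79 in rectum. There were 5 IgM cells, 2 in jejunum, 2 in ileum and 1 in rectum, and 3 IgG cells, 1 in ileum and 2 in colon. No IgE cell was found, which allows a share of up to 1.80%.

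The cells of other classes differed in how clear their class was. The jejunal IgM cells had 7633 and 2176 UMIs of Ighm, the IgM heavy chain, beside 45 and 3 of Igha, and the ileal ones 934 and 1372 beside 0 and 1. The second of the jejunal cells had UMIs of 9 of 9 cell cycle genes. The rectal IgM cell rested on 7 Ighm UMIs beside 4 of Igha, and had an immunoglobulin share of 5.40%. The ileal IgG cell had 1412 UMIs of Ighg3, an IgG heavy chain, beside 8 of Igha. The colonic IgG cells had 224 and 229 UMIs of Ighg1, another of them, beside 64 and 160 of Igha. Another colonic cell held 3078 of the 3550 Ighg1 UMIs of colon beside 4603 of Igha, which made it IgA by the rule, with 63373 UMIs in all. No library held 5 IgM cells, so IgM and IgA plasma cells could not be compared by a test.

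The light chain class was lambda in 3 of 39, 5 of 39, 0 of 11, 2 of 35 and 19 of 79 cells, which in rectum is 24.1% (15.1 to 34.98%) and elsewhere 0% to 12.8%. The interval of every other segment overlapped that of rectum. Among the barcodes above the Epcam limit 11 of 40, 3 of 30, 3 of 17, 5 of 52 and 60 of 213 were lambda, which was 27.5% in duodenum and 28.2% in rectum. Without the 24 barcodes with 5 or more UMIs over 16 macrophage, stromal and T cell genes the rectal share was 19.4%.

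Variable genes could be assigned in part of the cells. A heavy chain V gene held at least 80% of V gene UMIs in 128 cells, with 48 different genes, and a light chain V gene did so in 65. Ighv10-1 was the most frequent heavy chain gene, in 16 cells, 7 of them rectal, and in 46 barcodes above the Epcam limit, 38 of them rectal. For comparison, 47 of all 128 plasma cells with a heavy chain V gene were rectal, and 140 of 233 barcodes above the limit. Ighv1-80 and Ighv1-82 followed with 8 cells each. Of the light chain genes, Iglv1 was found in 27 cells and Igkv10-96 in 12. Iglv1 is a lambda gene, yet 14 of its 27 cells were of the kappa class, with medians of 95.5 Iglv1, 8788 Igkc and 36.5 lambda constant UMIs, against 36.0, 24.0 and 3982 in the 13 lambda cells. Iglv1 was thus not limited to lambda cells. The 43 cells with both formed 32 pairs. Ighv10-1 with Iglv1 occurred in 3 cells, all rectal, and in 7 barcodes above the Epcam limit, 1 duodenal, 1 colonic and 5 rectal. Ighv1-69 with Igkv10-96 occurred in 2 duodenal cells and 1 jejunal cell. V genes are near copies of each other, so reads can be split or lost between them, and a shared pair is not shown to be a clone.

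Set beside B cells of the same library, plasma cells had higher levels of the secretory machinery as a whole. The rule that chose the cells used this contrast, so it is a description and was not tested. Levels are CPM without immunoglobulin genes in the total, from here on. Of 9429 genes compared, 191 (2.03%) were at least 4-fold higher in plasma cells in all 5 libraries, and 55 (0.583%) at least 4-fold lower. With immunoglobulin genes kept in the total these numbers were 68 and 355. These genes held 51.9% to 61.4% of UMIs in plasma cells by library and 1.22% to 1.53% in B cells. Small excesses over B cells therefore depend on leaving them out. Above B cells by any margin in all 5 were 1390 genes, 14.7%, and below them 2567, 27.2%. Plasma cells were deeper than B cells, with a median of 19939 UMIs against 3291.

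Of the genes named by the size of their smallest difference, Jchain and Tnfrsf17 are part of the rule. Slpi was at 1374 to 3433 CPM in plasma cells, against 0.310 to 2.91 CPM in B cells. Sdc1, the plasma cell surface proteoglycan CD138, was at 393 to 595 CPM, against 0 to 3.63 CPM. Cacna1s, a subunit of a voltage-gated calcium channel best known from skeletal muscle, was at 334 to 730 CPM, against 3.98 to 10.2 CPM, with a UMI in 177 of 203 cells. Cd28, a costimulatory receptor best known from T cells and also present on plasma cells, was at 120 to 317 CPM, against 0 to 1.55 CPM. Tent5c, a poly(A) polymerase that lengthens tails of antibody mRNA, was at 549 to 928 CPM, against 5.28 to 19.9 CPM, and the membrane protein gene Tmem176b at 644 to 1679 CPM, against 5.83 to 37.99 CPM. Ctla4, an inhibitory receptor of T cells and chosen after its values were seen, was at 229 to 382 CPM, against 1.71 to 7.39 CPM. The T cell genes Cd3d, Cd3g, Trac and Trbc2 together had 29 UMIs in all plasma cells, 0 of them in 196 cells.

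Transcription factors of the plasma cell state were uneven in their distance from B cells. Xbp1 was at 5003, 2938, 2840, 3167 and 3782 CPM, at least 40.6-fold above B cells in each library, in 200 of 203 cells. Prdm1, which encodes the repressor BLIMP1, was at 159 to 364 CPM, against 2.11 to 15.4 CPM. Irf4, which B cells also use, was at 90.6 to 177 CPM, against 60.1 to 118 CPM. The elongation factor gene Ell2, known for its part in the switch to secreted antibody, was at 244 to 365 CPM, against 17.9 to 40.4 CPM. Of 23 compared genes of the plasma identity list, 18 were above B cells in all 5 libraries, 11 of them at least 4-fold, and 2 were below. Cd38, high on human plasma cells, was one of those below, at 17.5 to 60.4 CPM, against 134 to 235.1 CPM.

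All 30 genes of ER translocation and folding found in the matrices were above B cells in all 5 libraries, 19 of them at least 4-fold. Their median log2 difference was 2.62, against -0.22 over all genes compared. Of the promoters shown above, Hsp90b1, the ER chaperone GRP94, was at 5630, 6559, 6761, 7136 and 9049 CPM, against 377 to 530 CPM in B cells. Creld2, an ER stress-inducible protein, was at 804 to 1278 CPM, against 20.1 to 34.6 CPM. Dnajc3, a co-chaperone of BiP, was at 627 to 830 CPM, against 54.9 to 64.1 CPM. The smaller differences were those of Hspa5, which encodes BiP itself, at 2243 to 3914 CPM, against 564 to 719 CPM, of the disulfide isomerase gene Pdia6, at 869 to 1588 CPM, against 165 to 224 CPM, and of Calr, the lectin chaperone calreticulin, at 1374 to 2487 CPM, against 412 to 576 CPM. Of the genes without the motif, Ssr4, of the translocon-associated complex, was at 2207 to 3681 CPM, against 139 to 208 CPM, and Txndc5, a thioredoxin-like disulfide isomerase, at 1458 to 3497 CPM, against 47.5 to 61.1 CPM.

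Genes that remove misfolded proteins showed the same direction with exceptions. Of 18 compared, 15 were above B cells in all 5 libraries, 11 at least 4-fold. Derl3, a derlin of the retrotranslocation complex, was at 370 to 612 CPM, against 2.11 to 15.9 CPM, and Edem1, which marks misfolded glycoproteins for degradation, at 793 to 1383 CPM, against 23.3 to 37.0 CPM. Genes of the PERK branch of the stress response were among the exceptions. Atf4 was at 176 to 275.5 CPM, against 197 to 251 CPM in B cells, and its target Ddit3, which encodes the stress factor CHOP, at 28.3, 23.1, 12.6 and 30.6 CPM outside ileum, against 39.8 to 54.2 CPM over all B cells. In ileum Ddit3 was at 207.5 CPM in plasma cells, from 19 UMIs. Of 19 Golgi and vesicle genes, 18 were above B cells in all 5 libraries, 5 of them at least 4-fold. Among them Lman1, a cargo receptor between ER and Golgi, was at 448 to 709 CPM, against 10.2 to 32.7 CPM, and Creb3l2, a membrane-bound factor of secretory capacity, at 96.2 to 145 CPM, against 1.46 to 5.28 CPM.

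Genes of the B cell programme were lower in plasma cells. Of 25 compared, 24 were below B cells in all 5 libraries and 10 at least 4-fold, and Ms4a1 and Cd79a among them were used to choose the B cells. Bank1, a scaffold of B cell receptor signalling, was at 4.37 to 57.9 CPM, against 656 to 750 CPM in B cells. Ebf1, a factor of B cell identity, was at 16.04 to 186 CPM, against 1599 to 1799 CPM. Ccr7, the receptor for homing to lymph nodes, was at 0 to 18.45 CPM, against 178 to 471 CPM, and S1pr1, the receptor for exit from them, at 0 to 10.6 CPM, against 169 to 221 CPM. Other members were nearer to the level of B cells. Cd74, the invariant chain of antigen presentation, was at 4861 to 9691 CPM, against 15087 to 19500 CPM, and was found in all 203 cells. T cells stood at 59.25 to 6358 Cd74 CPM. Ly6d, a surface protein of the B lineage and the member not below B cells in all libraries, was at 1063 to 2720 CPM, against 1683 to 2317 CPM.

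**Figure D4:**
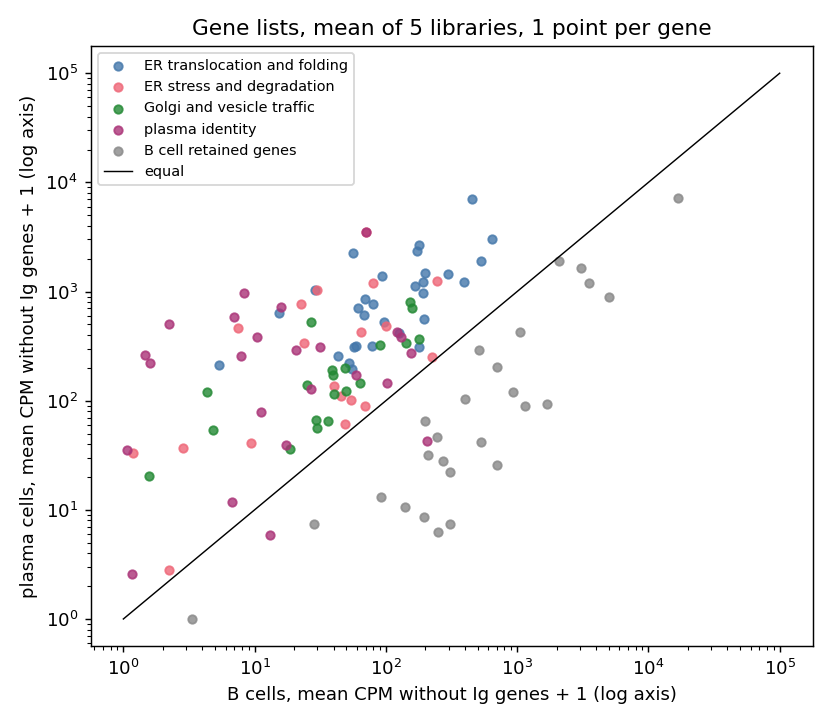
Mean level over the 5 libraries in plasma cells (y) and B cells (x), as CPM without immunoglobulin genes plus 1 on log axes, with 1 point per gene and colours for 5 gene lists. All 30 folding genes (blue) lie above the line of equal levels and nearly all retained B cell genes (grey) below it.

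Few genes separated the large intestine from the small. Colon and rectum were set against duodenum, jejunum and ileum by a rule of size: the lowest level of one side had to be at least 2-fold above the highest of the other. Of 2306 genes with enough counts, 5 (0.217%) were higher in the large intestine and 2 (0.0867%) in the small. With duodenum, jejunum, ileum, colon or rectum left out in turn, 10, 20, 16, 20 and 25 genes were higher in the large intestine and 2, 4, 4, 12 and 4 in the small. Leaving a segment out takes away a level that must clear the gap, so the rule becomes easier to pass. The counts therefore do not measure the weight of each segment. Without the fold requirement, 321 (13.9%) did not overlap in the first direction and 172 (7.46%) in the second.

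Ccr9, the receptor for homing to the small intestine, was one of the 2 that were higher there. It stood at 181 (134 to 238), 178 (140 to 222), 76.5 (30.7 to 158), 35.3 (19.3 to 59.1) and 14.6 (6.99 to 26.8) CPM. Duodenum and jejunum were about equal and lay above colon and rectum with no overlap of intervals, whereas the interval of ileum, with 11 cells and 7 UMIs, overlapped both neighbours. Of the 7 ileal UMIs, 5 lay in 1 cell. A Ccr9 UMI was found in 18 of 39, 22 of 39, 3 of 11, 7 of 35 and 8 of 79 cells. After thinning each cell to 1000 UMIs without immunoglobulin genes, which left out 6 shallower cells, the counts were 8 of 36, 9 of 39, 0 of 11, 1 of 34 and 2 of 77. The barcodes above the Epcam limit, which were not among the 203, stood at 158, 197, 138, 9.70 and 21.4 CPM. T cells of the same libraries stood at 167, 388, 157, 18.45 and 2.45 CPM, and B cells at 0 to 9.21 CPM. As a mean over cells of each cell's fraction, the lowest of the small intestine was 1.05 times the highest of the large, and without the 24 mixed barcodes it was 1.84 times, against 2.17 times (0.741 to 5.74) in the sums. With immunoglobulin genes kept in the total it was 1.81 times, and Ccr9 did not pass the rule.

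Ccr10 did not follow Ccr9. It stood at 468, 256, 328, 317 and 277 CPM, with a UMI in 29, 26, 6, 26 and 46 cells, and at 0 UMIs in all 2696 B cells. Its difference from B cells was at least 63.4-fold in each library, with B cells set to a floor of 3 UMIs per library. Duodenum lay above jejunum, colon and rectum by its interval of 391 to 555 CPM, and the other 4 overlapped each other. Both receptors were found in 15, 17, 2, 4 and 5 cells and neither in 7, 8, 4, 6 and 30, counts that also depend on depth. Gpr15, a receptor of colonic homing in T cells, had 8 UMIs in 6 cells, all in colon and rectum. The gut integrin genes Itga4 and Itgb7 were at 197 to 262 CPM and 187 to 317 CPM in plasma cells, against 116 to 200 CPM and 80.6 to 108 CPM in B cells. Differences of this size depend on leaving immunoglobulin genes out of the total. Cxcr4, the receptor for bone marrow and germinal centre retention, was at 55.4 to 104 CPM, against 304 to 690 CPM.

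S100a10, the annexin A2 partner protein, led the genes higher in the large intestine, at 230, 198, 207.5, 544 and 678 CPM. It was carried by 29 of 35 cells in colon and 65 of 79 in rectum, and no rectal cell held more than 4.30% of the UMIs. T cells were also higher in colon and rectum, at 938 and 1130 CPM, against 512 to 547 CPM in the small intestine, and B cells were at 240, 201, 214, 380 and 262 CPM. Desi2, of a family of deSUMOylating peptidases, was at 28.3, 29.98, 21.9, 78.1 and 70.0 CPM, and Raph1, a regulator of lamellipodia, at 35.4, 20.8, 32.8, 75.5 and 71.4 CPM. None of the 5 genes passed the rule once the barcodes above the Epcam limit were added, whereas Ccr9 did. The other small intestinal gene, the immediate early gene Ier2, was at 376, 311, 197, 95.7 and 77.3 CPM.

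Postn and Adamdec1, secreted products of stromal cells, completed the list and moved with other stromal genes. Adamdec1 was at 42.5, 62.3, 0, 1146 and 133 CPM, from 8 of 35 cells in colon and 10 of 79 in rectum. The 10 stromal and endothelial markers summed to 53.1, 25.4, 98.3, 1438 and 614 CPM, and 6 colonic and 7 rectal cells had 5 or more UMIs of 7 stromal genes while no cell of the small intestine did. Without the 24 mixed barcodes Postn and Adamdec1 no longer passed, nor did Raph1, Ccr9 and Ier2, whereas S100a10 and Desi2 did.

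Vim separated rectum from all other segments. Vimentin, the intermediate filament of mesenchymal and many blood cells, was at 220 (168 to 282), 505 (440 to 577), 328 (221 to 468), 806 (720 to 899) and 3203 (3070 to 3340) CPM, so that rectum was 3.98 times the next highest segment. It was found in 77 of 79 rectal cells with a median of 15 UMIs, and in 14 of 39, 25 of 39, 4 of 11 and 26 of 35 cells elsewhere with medians of 0 to 4. The barcodes above the Epcam limit stood at 396, 382, 683, 606 and 3186 CPM. Rectal B cells were at 214 CPM, near the 146 to 213 CPM of other segments, whereas rectal T cells were at 1287 CPM, against 186 to 506 CPM. Without the 24 mixed barcodes rectum was at 3240 CPM and colon at 738 CPM.

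Rectum exceeded the other segments at least 2-fold in 9 of 2831 genes (0.318%). The total of 2831 genes was the same for every segment, but a gene needed at least 30 UMIs in the segment itself. Plasma cells held 91552 UMIs without immunoglobulin genes in ileum and 685966 in rectum, so this limit is a higher level in ileum. The percentages by segment are thus not shares of the genes that could pass there, and cannot be compared between segments. Crip1, a small LIM-domain protein, was at 453.5, 733, 1038, 1193 and 3212 CPM in plasma cells and Lmna, of the nuclear lamina, at 184, 76.1, 164, 269 and 697 CPM. They were found in 74 and 67 of 79 rectal cells. In T cells, rectum was likewise highest for Lmna, at 289 CPM, against 15.95 to 89.6 CPM elsewhere, and for Crip1, at 1348 CPM, against 522 to 973 CPM. Epithelial cells were also highest in rectum for Lmna, at 573 CPM, against 125 to 216 CPM, but not for Crip1. B cells were highest in colon for both, at 25.3 CPM of Lmna and 971 CPM of Crip1. Acta2 and Myh11, smooth muscle genes that the same rule named, each had their rectal UMIs in 1 cell, 76 of Acta2 and 59 of Myh11. Ly6c2, a surface protein of mouse plasma cells and other leukocytes, was at 974, 567, 98.3, 1080 and 2109 CPM and did not reach 2-fold.

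Duodenum exceeded the others in 6 genes (0.212%). Jun, the AP-1 factor c-Jun, was at 2112, 740, 590, 740 and 693 CPM in plasma cells and at 1571, 617, 312, 932 and 665 CPM above the Epcam limit, against 230 to 358 CPM in B cells. Single cells weighed on it, since 1 of 39 duodenal cells held 22.3% of its UMIs. The phosphatase gene Dusp1, at 493, 134, 98.3, 229 and 171 CPM, Csrnp1 and Rrad were named with it. Of the 41 duodenal Rrad UMIs, 30 lay in 1 cell. Above the Epcam limit duodenum was not the highest for Dusp1, at 213, 128, 58.1, 264 and 244 CPM, nor for Csrnp1, at 52.5, 43.6, 32.7, 40.75 and 54.8 CPM. Cxcl10, an interferon-induced chemokine, was at 811, 69.2, 382, 204 and 346 CPM, with 87 of its 229 duodenal UMIs in 1 cell. Of the 21 immediate early and heat shock genes, Jun and Dusp1 were 2-fold highest in duodenum, and Fosb, another AP-1 subunit, was at 1775, 899, 481, 788 and 580 CPM without passing.

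**Figure D5:**
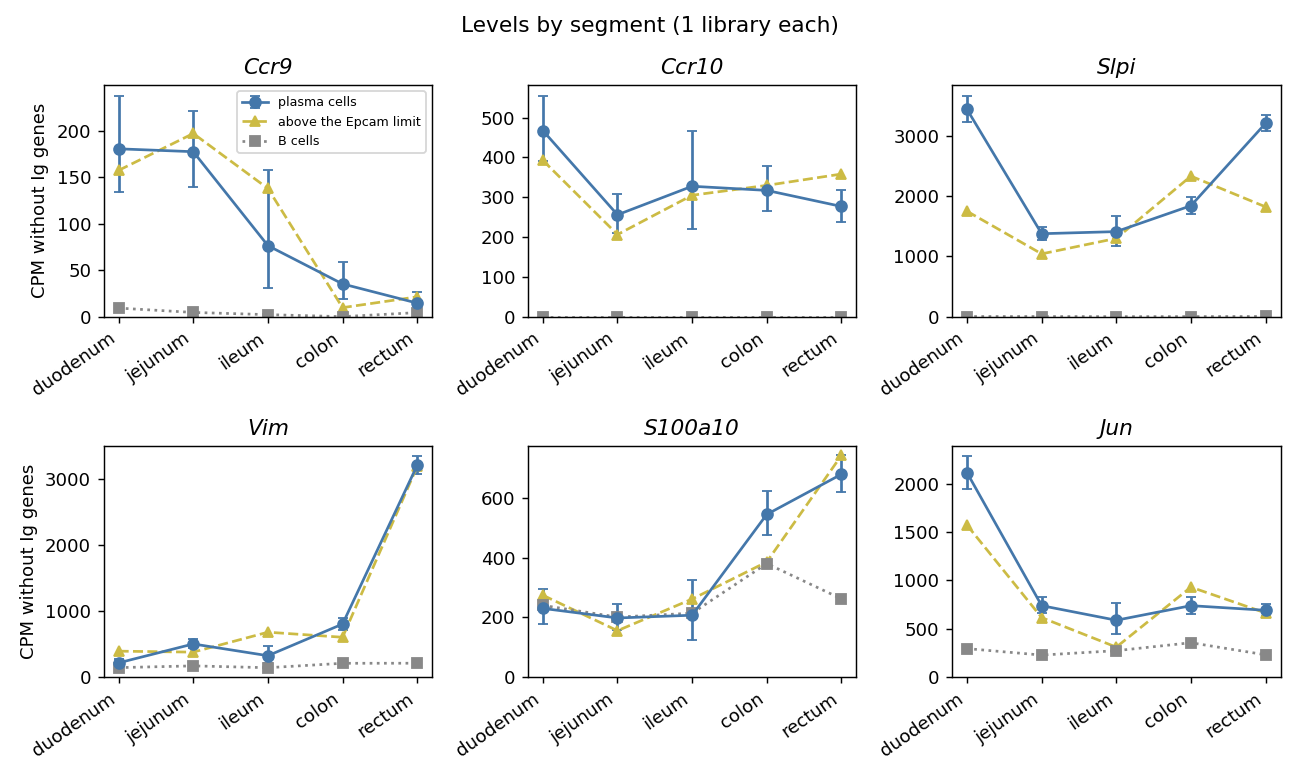
Level of 6 genes by segment as CPM without immunoglobulin genes, in plasma cells (circles, with exact 95% Poisson intervals), barcodes above the Epcam limit (triangles) and B cells (squares), 1 library per segment. Ccr9 lies at 14.6 to 35.3 CPM in colon and rectum plasma cells, and Vim at 3203 CPM in rectum.

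In jejunum 51 genes passed (1.80%). They were led by the macrophage and monocyte genes Mpeg1, Ms4a6c and Plbd1, found in 5 to 7 of 39 cells. Genes of proliferation also passed, among them Stmn1, Top2a and Mki67, likewise found in 5 to 7 cells. Single cells held 40 of 84, 40 of 59 and 48 of 100 of their jejunal UMIs. Actg1, a cytoplasmic actin, and H2-Ab1, an MHC class II chain, were found in 37 each. Single cells weighed on both, with 309 of 620 jejunal Actg1 UMIs in 1 cell and 293 of 1010 for H2-Ab1. The macrophage and dendritic list summed to 283, 1760, 54.6, 1533 and 692.5 CPM, and 3 jejunal, 4 colonic and 5 rectal cells had 5 or more UMIs of 5 macrophage genes. In ileum 4 genes passed (0.141%), among them Apoe, an apolipoprotein of macrophages, with 637 of 663 UMIs in 1 of 11 cells. Ileum had the fewest plasma cell UMIs, so fewer genes could reach the UMI limit there. The histone gene Hist1h1c was at 627, 528, 1846, 622 and 506 CPM, from 8 of 11 ileal cells, and the phosphatase gene Dusp4 at 248, 288, 786, 181 and 201 CPM, from 10. In colon 41 genes passed (1.45%), led by Igfbp3, Adamdec1, Itih5, Igfbp4 and Cxcl12, from 5 to 11 of 35 cells beside the stromal sum of 1438 CPM. The part of mixed barcodes, and of proliferating cells, in each gene was not tested.

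Beside the macrophage and stromal sums given above, the T cell list summed to 62.3 to 236 CPM, of which Cd2, also a gene of B cells, gave most. Granulocyte and mast cell genes summed to 0 to 135 CPM, highest in duodenum, where 25 UMIs of the mast cell protease Mcpt1 lay in 1 cell, and S100a8 and S100a9 had 0 UMIs. The 11 epithelial genes, Epcam among them, summed to 125 to 361 CPM, against 115 to 382 CPM in B cells.

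UMIs of 3 or more of 9 cell cycle genes (Mki67, Top2a, Birc5, Ube2c, Cdk1, Ccnb1, Ccnb2, Ccna2 and Cenpf) were found in 10 of 203 cells, 4.93% (2.39 to 8.87%), namely 0, 4, 0, 2 and 4 cells. None of the 9 was found in 149 cells. Above the Epcam limit, in cells of a median of 34220 UMIs, 54 of 352 met the same criterion, 15.3% (11.7 to 19.5%). These 10 cells had a median immunoglobulin share of 39.9%, against 57.0% in the other 193, and medians of 21290 and 19939 UMIs. Mki67 stood at 17.7, 231, 0, 93.2 and 108 CPM, and 1 jejunal cell held 48.0% of the jejunal UMIs.

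Of 26 interferon-stimulated genes, 3 were above B cells in all 5 libraries and 4 below. Over all 9429 genes compared, 14.7% were above and 27.2% below, so these counts do not set the list apart as raised. The median log2 difference of the list, from means over the 5 libraries, was -1.50, against -0.22 over all genes compared. Summed over the list, plasma cells stood at 5151, 4220, 4183, 5134 and 4936 CPM. B cells stood at 6387, 4270, 6303, 2520 and 2141 CPM. Ifit3, an antiviral effector, had 3 UMIs in all plasma cells, and in B cells stood at 157, 113, 177, 3.17 and 0 CPM. Bst2, the antiviral tetherin and a known plasma cell antigen, was among those above, at 964, 805, 1278, 803 and 1348 CPM in plasma cells, against 312.5, 148, 399.5, 67.5 and 52.5 CPM in B cells. Whether the 2 cell types differ between segments could not be tested with 1 library per segment.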

How the data were processed

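The deposited values are raw UMI counts for 32285 genes in each barcode. Cell Ranger 4.0.0 and mm10 are named, with Seurat, in the submitters' processing notes, whereas the headers of the matrices name cellranger 7.2.0. Members and gene lists were chosen with earlier results of these data known. Counts were summed over the cells of a library and scaled to CPM, with the 395 genes starting Igh, Igk or Igl left out of the total where stated. B cells had at least 1 UMI of Cd79a and of Ms4a1, at most 1 of Epcam and 0 of Cd3e and Jchain. Between segments a gene needed a 2-fold gap (50 UMIs for the large and small intestine, 30 for 1 segment) and at least 0.5 times the level in other kept barcodes. For a fold, counts under 3 were set to 3. Named genes are list members, the 10 widest gaps in each direction, the 5 per segment and the 10 of the B cell contrast in each direction. Scrublet's own threshold (scanpy 1.11.5) marked 27 barcodes, too few to use, so the highest scores, 0.8% per 1000 barcodes, were removed as an alternative. Other alternatives changed the limits of the rule, the totals, TMM factors (edgeR 4.0.16), thinning and single libraries. Spatial data were not analysed here.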

Additional observations from a re-analysis of the deposited data

How the results depend on the processing

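Values rest on 1 library per segment and, in ileum, on 11 cells. The limit on Epcam was examined after seeing the data. Without it there were 555 cells, rectum stood 8.46 percentage points above the next segment (1.28 with it), 9 genes were higher in the large and 4 in the small intestine, Ccr9 in the lowest small segment was 6.001 times that in the highest large one, Vim in rectum 4.82 times the next, and 106 genes were higher in B cells. With at most 1 UMI of 7 other epithelial genes in its place, these were 398 cells, 6.24 points, 9 and 5 genes, and 2.98 times for Vim. The IgA share and the rectal lambda share moved by less than their intervals under every alternative run.

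The number of genes higher in the large intestine, 5, became 3 with at least 1000 genes, with Jchain at 0.25%, with 6 UMIs of Mzb1 and Tnfrsf17, with the highest Scrublet scores removed and without mixed barcodes, 2 at 200 UMIs, 11 without the condition on other barcodes and 0 at 4-fold. The number higher in the small intestine, 2, became 1 with 6 UMIs of Mzb1 and Tnfrsf17, at 200 UMIs and with TMM factors, and 0 at 4-fold and over all UMIs. With 1 segment left out at a time they ranged from 10 to 25 and from 2 to 12, under a rule that is then easier to pass. With 6 UMIs Vim in rectum was 4.60 times the next. Against B cells, 68 genes were higher in plasma and 355 in B cells with all UMIs in the total, 78 and 6 at 8-fold, and 107 were higher in B cells without ileum. No paired analysis was possible because each segment has 1 library. The comparison of IgM with IgA cells and its alternatives were not run, since no library held 5 IgM cells. The causes were not tested.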
